A study of Mus musculus with 6 samples.

Results

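The genes that make fatty acids, phospholipids and cholesterol were examined as a group of 35, all of them found by their Entrez identifiers among the 27179 genes of a count table from sorted mouse lung epithelium. They fall into a lipogenic arm of 15 genes, a sterol arm of 15 genes and 5 genes that control both arms. All 35 passed the filter on low counts. Of the lipogenic arm, Acly and Fasn fell in the Grhl2 knockout, to 76.1% and 80% of control, and no gene of the sterol arm was called. Of all tested genes 3.59% were called, so the absence of a call among 15 genes is near that share.

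Cytosolic acetyl-CoA is the common substrate of both arms. ATP citrate lyase makes it from citrate, acetyl-CoA carboxylase and fatty acid synthase build palmitate from it, and desaturases, elongases and acyltransferases turn palmitate into membrane lipid, while in the sterol arm the mevalonate enzymes and the enzymes after squalene lead to cholesterol. SREBP transcription factors, held in the endoplasmic reticulum by SCAP and the INSIG proteins when sterols are plentiful, drive the genes of both arms. In the fetal lung these lipids matter beyond growth, since alveolar type 2 cells build up phosphatidylcholine for surfactant before birth.

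RNA was measured in EpCAM-positive cells sorted from lungs of mouse embryos at E16.5, a day of gestation before alveoli form. Control embryos were Shh-Cre;Grhl2f/+, with 1 floxed and 1 intact allele of the epithelial transcription factor gene Grhl2 (n = 3, replicates 1, 3 and 7). Knockout embryos, labelled Grhl2_cKO, were Shh-Cre;Grhl2f/-, with 1 floxed and 1 null allele (n = 3, replicates 1, 5 and 10). Both groups carried Shh-Cre, which acts in cells with a history of Sonic hedgehog expression, so control cells are heterozygous where Cre has acted. By its notation the null allele of the knockout is not limited to cells with Cre. Sex was balanced, with 2 males and 1 female on each side. The labels do not say whether a sample is 1 embryo or a pool, so p-values here rest on the variation among these 6 samples, which may in part be technical. In sorted bulk cells, fewer cells of a type and less RNA per cell cannot be told apart.

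Libraries held 13472216 to 17228762 counts. Grhl2 itself stood at 149, 148 and 146 CPM (counts scaled to the library total) in controls and at 105, 109 and 115 CPM in Grhl2_cKO, 74.4% of control (edgeR adjusted p = 0.00204). That count covers the whole gene, and the labels do not say which exons are removed. The epithelial markers Epcam, Cdh1, Nkx2-1 and Sftpc were present in each library, and Epcam, the sort marker, fell to 67.6% of control (edgeR adjusted p = 0.00527). Heart muscle markers summed to 174 to 206 CPM in controls and to 227 to 456 CPM in Grhl2_cKO, with the highest value in Grhl2_cKO replicate 1. All 10 heart genes tested had log2 ratios above 0, but only Myh7 was separated, and the other 9 overlapped between groups. In the epithelial list 8 of 10 genes had log2 ratios below 0, with a median of 81.3% of control, although Epcam alone was called. The summed level of that list overlapped between groups, at 16206 to 17391 CPM in controls and 15301 to 18162 CPM in Grhl2_cKO. The summed levels of mesenchymal, endothelial and blood markers overlapped between groups. Values without Grhl2_cKO replicate 1 are given for Acly and Fasn, and the part of sort composition in the results was not tested.

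The DNA just before the start of transcription is shown for 3 genes, the 2 that fell and Hmgcs1 at the head of the sterol arm, because SREBP acts at such sites together with the factor NF-Y. RefSeq promoter windows (GRCm38.p6, the build known as mm10) of 250 bases before and 50 after the start matched 30 of the 35 genes, with 43 windows, since some genes have up to 3 starts. For 36 of the 43 windows the first 30 bases after the start were found in a GENCODE transcript of the gene. The Acly and Fasn windows were among these, and the Hmgcs1 window was not. The stretches are the 250 bases before the start, written along the gene's strand: Acly (chr11:100528001-100528250, minus strand), Fasn (chr11:120824548-120824797, minus strand) and Hmgcs1 (chr13:119690101-119690350, plus strand). The Fasn stretch lies before the start used for its RefSeq window but inside the gene's annotated span. That span reaches to 120825166, so the annotated gene begins upstream of the stretch. Capitals mark matches, on either strand, to the NF-Y letters CCAAT and the SREBP letters TCACNCCAC.
Acly: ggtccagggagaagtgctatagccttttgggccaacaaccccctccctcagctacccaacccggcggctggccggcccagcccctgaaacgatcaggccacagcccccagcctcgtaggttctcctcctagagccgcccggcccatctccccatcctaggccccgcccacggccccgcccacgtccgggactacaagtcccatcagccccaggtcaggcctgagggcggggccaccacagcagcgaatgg
Fasn: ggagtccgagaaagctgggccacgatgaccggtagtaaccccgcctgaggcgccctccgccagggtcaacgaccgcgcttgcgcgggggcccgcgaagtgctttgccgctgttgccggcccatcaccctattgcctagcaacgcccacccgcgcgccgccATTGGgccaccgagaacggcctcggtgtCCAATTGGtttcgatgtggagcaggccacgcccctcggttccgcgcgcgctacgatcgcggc
Hmgcs1: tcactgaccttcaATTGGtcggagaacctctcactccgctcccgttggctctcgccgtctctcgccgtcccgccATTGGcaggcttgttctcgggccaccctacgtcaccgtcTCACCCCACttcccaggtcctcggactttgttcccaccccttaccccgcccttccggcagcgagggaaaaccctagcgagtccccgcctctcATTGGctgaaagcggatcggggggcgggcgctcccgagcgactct

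Counted per 300-base window, the CCAAT letters were in 12 of 15 sterol windows, 9 of 18 lipogenic windows and 5 of 10 SREBP control windows, beside 37.4% of all 32851 windows. Counted per gene, over all of its windows, they were found for 12 of 12 sterol, 9 of 13 lipogenic and 4 of 5 SREBP control genes, a count that more windows per gene can raise. Fasn had 3 matches before its start, a pair of which overlap in CCAATTGG, while the match in the Acly window lay after the start and is not printed. The SREBP letters were in 3 of the 43 windows, those of Hmgcs1 and 2 of Pcyt1a, and in 1.24% of all windows. These 2 Pcyt1a windows overlap and hold the same site. The E-box letters CACGTG, which SREBP can also bind, were in 7 of the 43 windows, those of Elovl5, Dhcr7, Hsd17b7, Sc5d, Insig1 and Scap, and in 7.15% of all windows. Scap counts with 2 windows, which overlap and hold the same site. The grainyhead letters AACNGGTT, which hold the core that GRHL proteins recognise, were in none of the 43 windows and in 2.09% of all windows. These matches describe the letters only, and distal sites were not examined.

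Levels can be compared between genes only per length, and on the RPKM scale (CPM per kilobase of the deposited gene length) they spread widely. Scd2, the main stearoyl-CoA desaturase gene here, led with 379.6 ± 18 RPKM in controls (SD, n = 3). Fasn and Acly followed at 86.5 ± 0.476 and 85.9 ± 0.862 RPKM, a pair that did not differ beyond their spread. Srebf1 stood at 70.4 ± 4.66, Elovl5 at 52.5 ± 2.18 and Srebf2 at 52.3 ± 1.57 RPKM, the last 2 within each other's spread. The highest sterol gene was Hmgcs1 at 45.0 ± 1.80 RPKM, then Sqle at 31.4 ± 1.48. Most sterol genes lay close together, 11 of 15 from 12.8 to 17.7 RPKM, with Idi1 at 8.34 and Hsd17b7 at 5.11 RPKM. Acacb and Elovl6 were lowest, at 0.892 ± 0.0775 and 1.59 ± 0.259 RPKM. Acacb had 96 to 125 counts per library and Elovl6 124 to 182, while no other gene had fewer than 278, so counting error weighs most on Acacb and Elovl6. Scd1 and Scd2 are close relatives, and reads from shared stretches may be split between them.

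**Figure D1:**
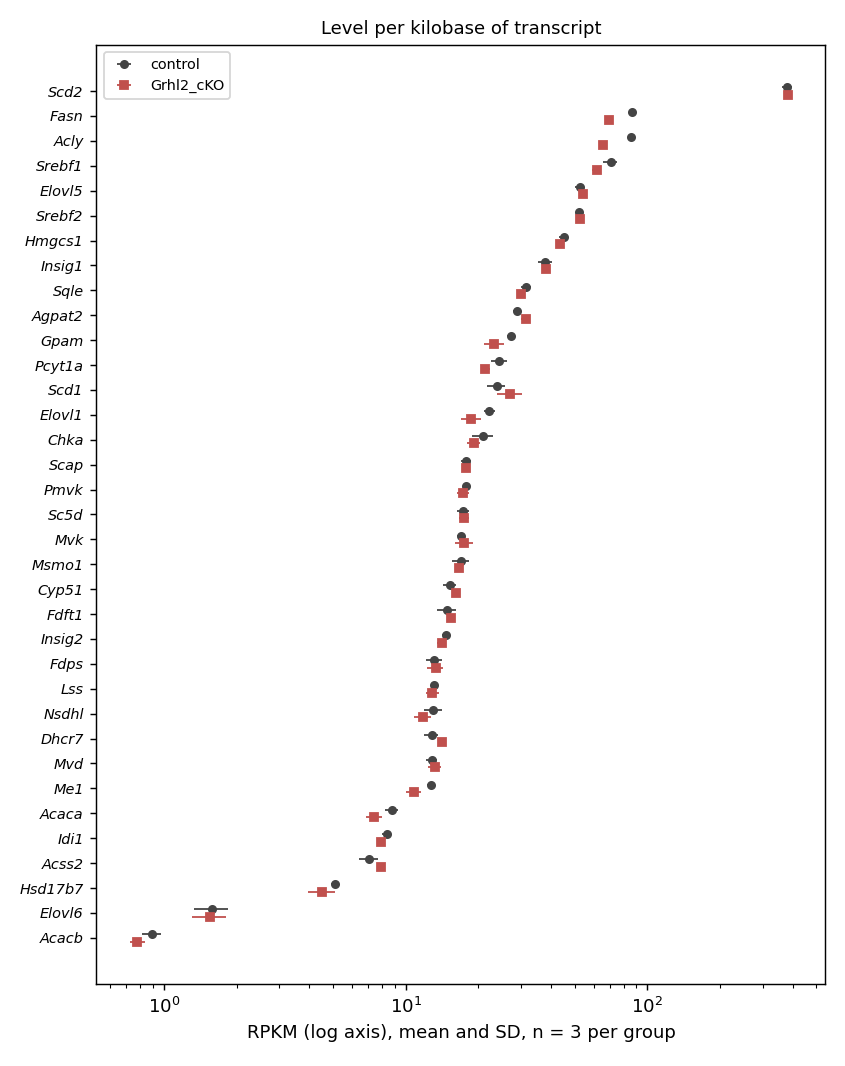
Level of each of the 35 genes per kilobase (RPKM, log axis), ordered by the control mean, with circles for control, squares for Grhl2_cKO and bars for the SD (n = 3 per group). Scd2 stands alone at the top, and Fasn and Acly are next, with Grhl2_cKO values to the left of control.

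Control and knockout were set against each other across the whole table. Of 14842 genes tested, 533 (3.59%) were called at a Benjamini-Hochberg adjusted p under 0.05 by edgeR's quasi-likelihood test, 353 lower (2.38%) and 180 higher (1.21%) in Grhl2_cKO. Among the 35 lipid synthesis genes 2 were called lower, both in the lipogenic arm, and none higher. The median log2 ratio was -0.19 over the 15 lipogenic genes, -0.02 over the 15 sterol genes, -0.01 over the 5 SREBP control genes and -0.00 over all tested genes. Here a log2 ratio is the fitted log2 fold change, Grhl2_cKO over control, given with its standard error. DESeq2 called the same count of the 35, 2 lower and 0 higher, with 4.51% of all its genes called.

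**Figure D2:**
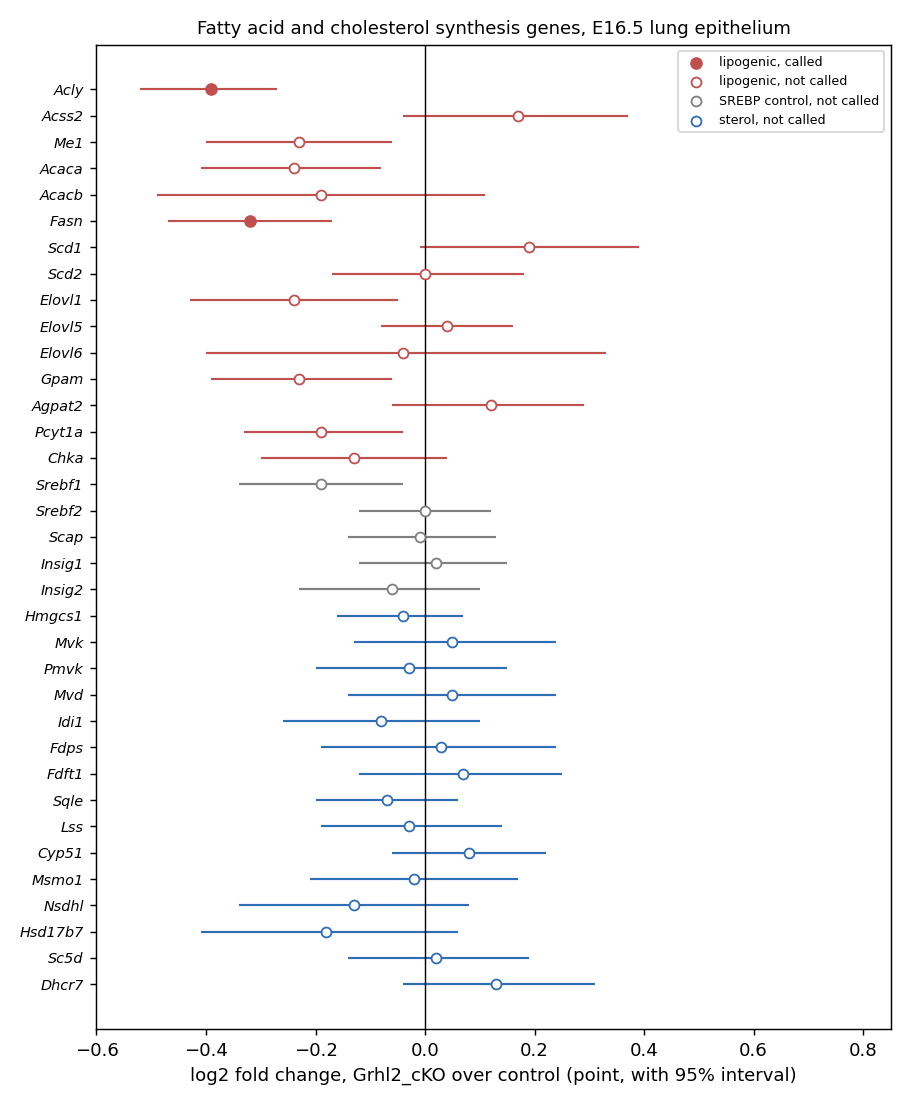
Log2 ratio of each gene, Grhl2_cKO over control, as a point with its 95% interval, in pathway order and coloured by arm. Filled points are the called genes Acly (-0.39) and Fasn (-0.32), and the intervals of all 15 sterol genes cross 0.

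Library by library, the median log2 distance of the lipogenic genes from their control means was -0.13, -0.13 and -0.12 in Grhl2_cKO replicates 1, 5 and 10 and -0.02, -0.02 and -0.03 for the sterol genes. The control libraries spanned -0.01 to 0.00 for the lipogenic and -0.06 to 0.03 for the sterol genes. These control values are distances from a mean of the same 3 libraries, which draws them towards 0, so they are no yardstick for the knockout values. Summed over the lipogenic arm, CPM were 4055, 4236 and 4136 in controls and 3944, 3769.7 and 3808 in Grhl2_cKO. Most of this difference lies in Acly (mean 380.2 CPM in controls, 289 in Grhl2_cKO) and Fasn (859 and 688 CPM). The largest part of each sum is Scd2 (mean 2070.1 and 2073 CPM). The sums therefore do not show a fall across the arm.

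Complete separation of the groups, where each Grhl2_cKO library lies on the same side of all controls, was seen for 9.89% of tested genes in the lower direction and 8.17% in the higher. In the lipogenic arm 7 of 15 genes were separated lower (Acly, Me1, Acaca, Fasn, Elovl1, Gpam and Pcyt1a) and 1 higher (Agpat2). Of the SREBP control genes Srebf1 was separated lower. In the sterol arm no gene was separated lower and Dhcr7 was separated higher. The same 7 lipogenic genes and Srebf1 had an unadjusted edgeR p under 0.05, as did 7.28% of all tested genes in that direction, and 6 of the 8 did not pass after adjustment. None of the 35 had an unadjusted edgeR p under 0.05 in the higher direction, as 5.99% of tested genes did.

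**Figure D3:**
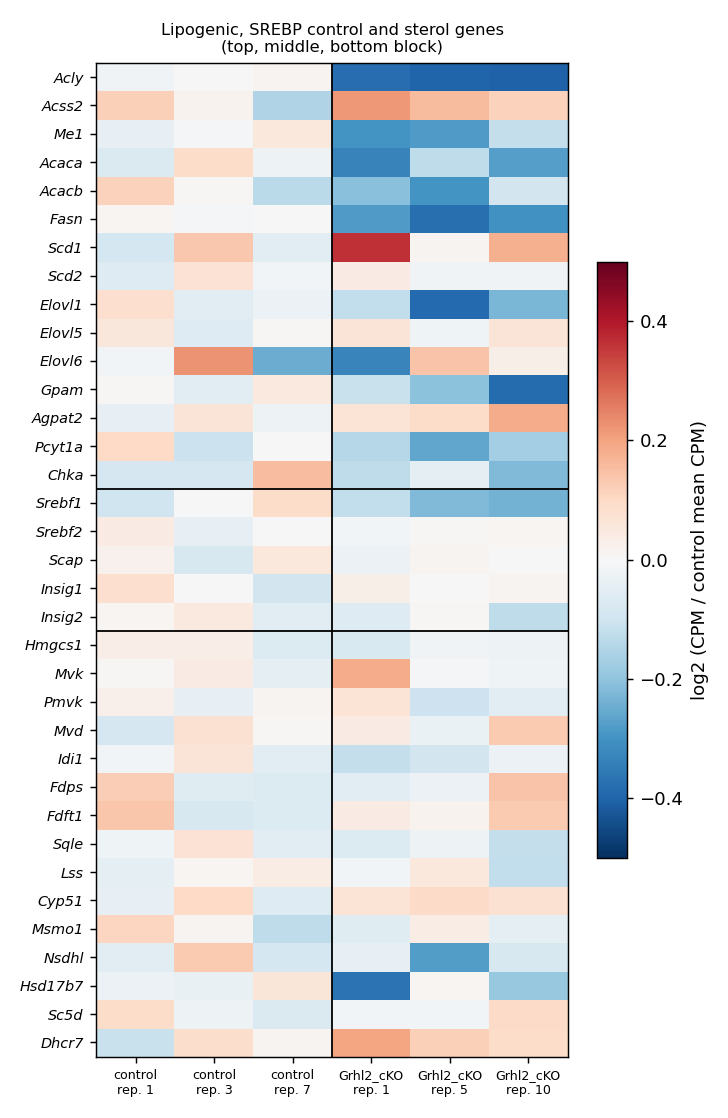
Log2 ratio of each library's CPM to the control mean (colour) for the 35 genes in rows, with control libraries on the left and Grhl2_cKO on the right. Blue cells on the right gather in the upper, lipogenic block, led by Acly and Fasn, while the lower, sterol block mixes both colours.

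Acly encodes ATP citrate lyase, which releases acetyl-CoA from citrate in the cytosol (Entrez 104112, chromosome 11, 100476352 to 100528000). Control replicates 1, 3 and 7 gave 376, 381 and 384 CPM. Grhl2_cKO replicates 1, 5 and 10 gave 292, 288 and 287 CPM, and values of other genes follow this order of libraries. The groups did not overlap, and the replicates within each lay close together, with means of 380.2 ± 3.82 and 289 ± 2.81 CPM (SD, n = 3 each). The log2 ratio was -0.39 ± 0.05 (SE; 95% interval -0.52 to -0.27; edgeR adjusted p = 0.00363). The call held in all 15 alternative fits, with adjusted p from 4.54e-08 to 0.0254, and without Grhl2_cKO replicate 1 the log2 ratio was -0.40 (edgeR adjusted p = 0.0127).

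Neither of the other suppliers was called. Me1, the cytosolic malic enzyme that yields NADPH, stood at 44.1, 45.0 and 47.0 CPM in controls and at 36.9, 37.3 and 41.8 CPM in Grhl2_cKO. Each knockout value was below each control, but the difference did not pass (log2 ratio -0.23 ± 0.08 SE, edgeR adjusted p = 0.172). Acss2, which makes acetyl-CoA from acetate instead of citrate, stood at 21.7, 20.2 and 18 CPM in controls and 23.2, 22.3 and 21.6 CPM in Grhl2_cKO. Its groups overlapped and its log2 ratio was on the other side of 0, at 0.17 ± 0.09 (edgeR adjusted p = 0.555).

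Fasn, the multifunctional synthase that makes palmitate (Entrez 14104, chromosome 11, 120805958 to 120825166), stood at 864, 854 and 859.5 CPM in controls and at 706, 662 and 696 CPM in Grhl2_cKO. Controls differed among themselves by far less than the gap to the nearest knockout library. The log2 ratio was -0.32 ± 0.07 (SE; 95% interval -0.47 to -0.17; edgeR adjusted p = 0.0294). The size was steady, from -0.34 to -0.29 over 15 alternative fits, but the call was lost in 5 of the 6 fits that left out a library (control replicates 1, 3 and 7, adjusted p = 0.0884, 0.131 and 0.0778; Grhl2_cKO replicates 5 and 10, adjusted p = 0.177 and 0.0868). It was kept without Grhl2_cKO replicate 1 (edgeR adjusted p = 0.0434).

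Acetyl-CoA carboxylase, which makes the malonyl-CoA that Fasn uses, is encoded by Acaca and Acacb. Acaca stood at 75.2, 84.3 and 77.8 CPM in controls and at 62.8, 72.5 and 65.4 CPM in Grhl2_cKO. Its groups were separated and its log2 ratio was -0.24 ± 0.07, short of the threshold (edgeR adjusted p = 0.128). Acacb, the form tied to mitochondria, was low at 7.57 ± 0.657 and 6.60 ± 0.472 CPM (SD, n = 3 each; edgeR adjusted p = 0.685).

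**Figure D4:**
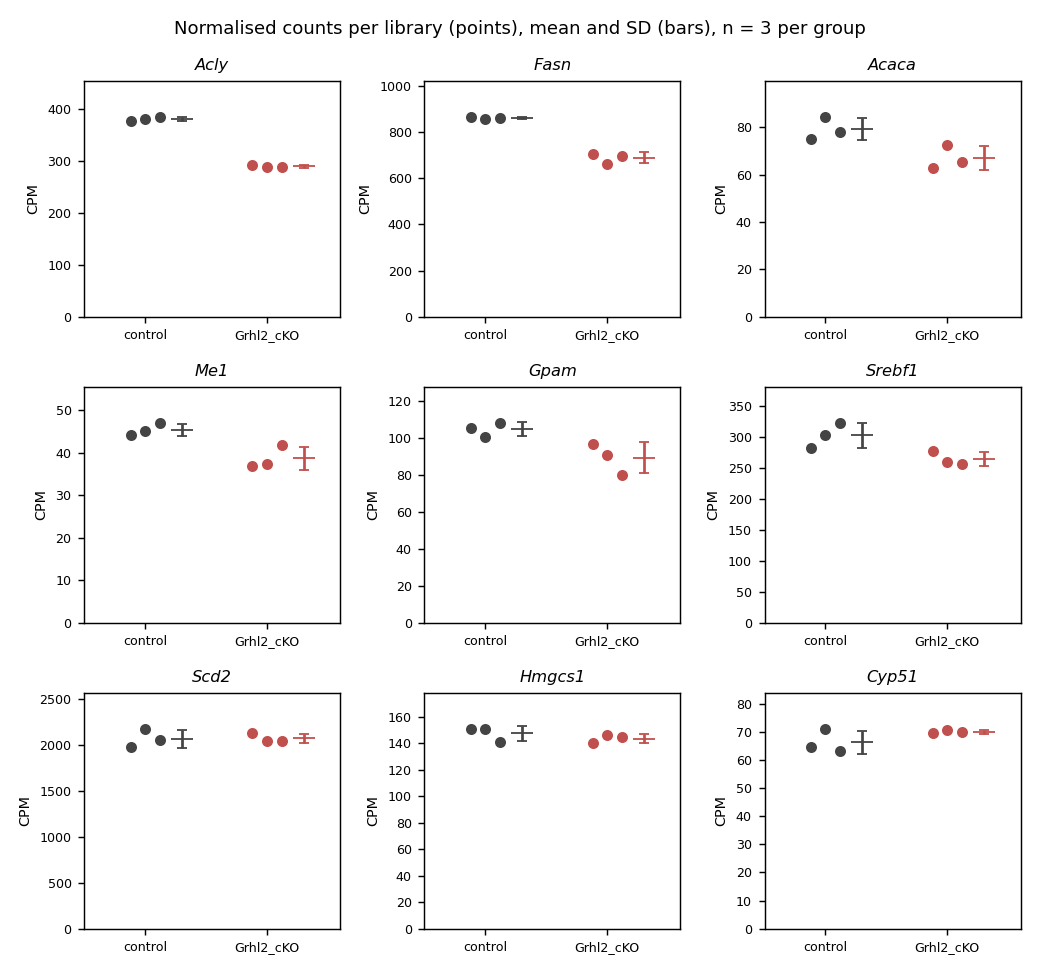
CPM in each library (points) with the group mean and SD (bars, n = 3) for 6 lipogenic or SREBP control genes, Scd2 and 2 sterol genes, each on an axis from 0. Acly, Fasn, Acaca, Me1, Gpam and Srebf1 show all Grhl2_cKO libraries below all controls, and Scd2, Hmgcs1 and Cyp51 overlap.

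The enzymes that modify palmitate did not share a direction. Scd2 stood at 1982, 2176 and 2053 CPM in controls and 2129, 2047 and 2043 CPM in Grhl2_cKO. The ranges overlapped almost fully, with a log2 ratio of 0.00 ± 0.08 and a 95% interval of -0.17 to 0.18, which is 88.8% to 113% of control. Scd1, the desaturase of liver and fat, had a log2 ratio of 0.19 ± 0.09 (edgeR adjusted p = 0.431), with Grhl2_cKO replicate 1 highest at 148 CPM and replicate 5 at 116 CPM, inside the control range of 108 to 126 CPM. Of the elongases, Elovl1, which serves very long saturated chains, stood at 44.7, 40.6 and 41.3 against 38.7, 32.2 and 36 CPM (log2 ratio -0.24 ± 0.09, edgeR adjusted p = 0.215). Elovl5, for polyunsaturated chains, and Elovl6, which extends palmitate to stearate, had log2 ratios of 0.04 ± 0.05 and -0.04 ± 0.16, the latter at only 8 to 11.1 CPM in controls.

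In glycerolipid and phosphatidylcholine synthesis no gene was called. Gpam, the mitochondrial acyltransferase that starts glycerolipid synthesis, stood at 105, 100.5 and 108 CPM in controls and at 96.8, 90.7 and 80.1 CPM in Grhl2_cKO (log2 ratio -0.23 ± 0.07, edgeR adjusted p = 0.16). Pcyt1a, which encodes the rate-limiting enzyme of the choline pathway to phosphatidylcholine, stood at 136, 118 and 127 against 115, 106 and 113 CPM (log2 ratio -0.19 ± 0.06, edgeR adjusted p = 0.19). For both genes all knockout libraries lay below all controls. Chka, the choline kinase before it in that pathway, overlapped between groups (log2 ratio -0.13 ± 0.08, edgeR adjusted p = 0.591). Agpat2, the next acyltransferase after Gpam, was the 1 lipogenic gene separated in the higher direction, at 24.3 ± 0.944 and 26.3 ± 1.13 CPM, a log2 ratio of 0.12 ± 0.08, not called (edgeR adjusted p = 0.675). It overlaps the endothelial gene Egfl7 on the opposite strand over 3% of its exon bases.

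Srebf1, the SREBP gene tied most closely to fatty acid synthesis, had the largest difference of the SREBP control genes. It stood at 283, 303 and 323 CPM in controls and at 278, 259.7 and 257 CPM in Grhl2_cKO, and the gap between the nearest libraries, 283 and 278 CPM, was small. Its log2 ratio was -0.19 ± 0.07 and did not pass (edgeR adjusted p = 0.198; 0.102 to 0.56 over its alternatives). Srebf2, which drives sterol genes, stood at 246, 232 and 239 against 237, 240.2 and 240.4 CPM. Its 95% interval of -0.12 to 0.12 on the log2 scale holds it within 92.3% to 109% of control. Scap, the escort of SREBP, and the anchors Insig1 and Insig2 had log2 ratios of -0.01 ± 0.06, 0.02 ± 0.06 and -0.06 ± 0.07. None of the 5 SREBP control genes was called by edgeR, DESeq2 or limma-voom, and Srebf1 alone had an unadjusted edgeR p under 0.05. Over all tested genes edgeR called 3.59%. SREBP proteins are activated by cleavage, which RNA counts do not show.

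In the sterol arm, none of the 15 genes was called by edgeR, DESeq2 or limma-voom or in any other alternative fit, and none had an unadjusted p under 0.05 with those 3 tools. As edgeR called 3.59% of all tested genes, the absence of a call among 15 is near that share. Log2 ratios ran from -0.18 to 0.13, with 8 below 0 and 7 above. The 95% intervals, each for a single gene, reached from -0.41 to 0.31 at their outermost, so differences beyond 75.2% or 124% of control lay outside the interval of each gene. Summed over the arm, CPM were 668, 679 and 642 in controls and 655, 659.9 and 659 in Grhl2_cKO, with the knockout inside the control range.

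Among the mevalonate enzymes, Hmgcs1, which makes the HMG-CoA from which mevalonate is formed, stood at 151, 151 and 141 CPM in controls and 140.0, 146 and 145 CPM in Grhl2_cKO (log2 ratio -0.04 ± 0.05, 95% interval -0.16 to 0.07). The kinases Mvk and Pmvk and the decarboxylase Mvd, which act in turn on mevalonate, had log2 ratios of 0.05 ± 0.08, -0.03 ± 0.08 and 0.05 ± 0.09. Idi1, the isomerase of the isoprene units, and Fdps, which joins them to farnesyl diphosphate, had -0.08 ± 0.08 and 0.03 ± 0.10. The groups overlapped for all 6 of these genes. Of the 4208 GENCODE exon bases of Fdps 26.7% are shared with another annotated gene on the same strand, so its counts may be less certain. The deposited length of Fdps is 1461 bases, so that share need not hold for the bases counted. For Hmgcs1 12.1% and for Scap 13.2% of exon bases overlap a gene on the opposite strand, while Acly and Fasn share none with another gene.

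Past farnesyl diphosphate, Fdft1, the squalene synthase gene, had a log2 ratio of 0.07 ± 0.08, and 18.3% of its exon bases overlap Ctsb on the opposite strand, with the strand setting of the counting not given in the sources used here. Sqle, the squalene epoxidase and a control point of the pathway, stood at 85, 90.8 and 83.0 against 82.2, 84.7 and 79.5 CPM (log2 ratio -0.07 ± 0.06, 95% interval -0.20 to 0.06). Lss, which closes the sterol rings, and Cyp51, which removes a methyl group from lanosterol, had -0.03 ± 0.07 and 0.08 ± 0.06. Msmo1, Nsdhl and Hsd17b7, which together strip further methyl groups, had -0.02 ± 0.08, -0.13 ± 0.09 and -0.18 ± 0.11. Hsd17b7 was the lowest of the arm, with Grhl2_cKO replicate 1 at 18.1 CPM, replicate 10 at 20.5 CPM and replicate 5 at 23.5 CPM, the last inside the control range of 22.8 to 24.4 CPM. The late enzymes Sc5d and Dhcr7, which set the double bonds of the ring, had 0.02 ± 0.08 and 0.13 ± 0.08. Dhcr7 stood at 33.4, 38.3 and 36.4 against 41.3, 39.1 and 38.4 CPM, so the lowest knockout value and the highest control nearly met, and it was not called (edgeR adjusted p = 0.561).

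**Figure D5:**
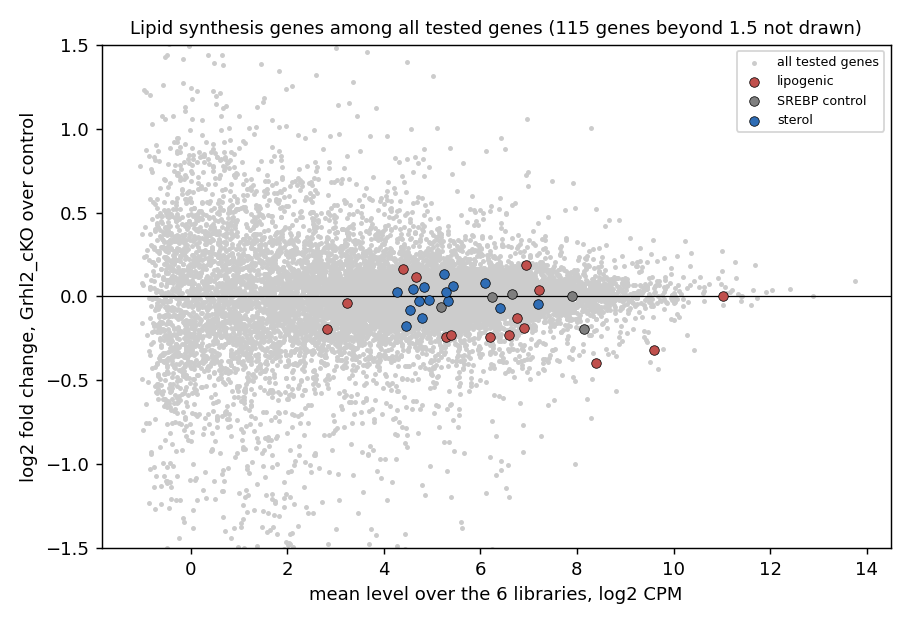
Log2 ratio against mean level (log2 CPM) for all tested genes (grey) and the 35 genes coloured by arm, with 115 genes beyond a log2 ratio of 1.5 not drawn. Acly and Fasn lie at -0.39 and -0.32, and the sterol genes lie between -0.18 and 0.13.

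Of the further genes of the same pathways, edgeR called Acsl5, Elovl2 and Cds1. It called 3.59% of all tested genes, so a low count of calls is no trait of these pathways. Of 15 further genes of sterol synthesis, uptake and storage none was called by edgeR, DESeq2 or limma-voom (1 lower and 1 higher at an unadjusted edgeR p under 0.05). The smallest p belonged to Soat1, the sterol esterifying enzyme, at 109, 123 and 122 against 105, 104 and 103 CPM (edgeR adjusted p = 0.16). Npc1, a cholesterol transporter of the lysosome, and Tm7sf2, a sterol reductase, had edgeR adjusted p of 0.392 and 0.774.

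Of 21 further genes of fatty acid synthesis and activation, 19 were tested, 1 fell and 1 rose. Acsl5, an acyl-CoA synthetase, fell from 306 ± 15.3 to 251 ± 3.42 CPM (SD, n = 3 each), 82.0% of control (edgeR adjusted p = 0.0262), a call lost in 5 of 15 alternatives, each the fit without 1 library (control replicates 1 and 3 and each Grhl2_cKO replicate; highest adjusted p = 0.0981). Elovl2, an elongase of polyunsaturated chains, rose from 10.4 ± 1.21 to 15.6 ± 0.932 CPM (log2 ratio 0.58 ± 0.12 SE, edgeR adjusted p = 0.0231), a call lost without control replicate 7 or Grhl2_cKO replicates 5 or 10 (highest adjusted p = 0.0961). The elongase Elovl7 and the desaturase Fads1 stood at 82.8% and 114% of control, both with groups separated and neither called (edgeR adjusted p = 0.0731 and 0.101).

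Of 27 further genes of glycerolipid and phospholipid synthesis 1 fell. Cds1, which makes CDP-diacylglycerol, fell from 36.9 ± 4.13 to 27.5 ± 2.13 CPM (log2 ratio -0.42 ± 0.10 SE, edgeR adjusted p = 0.0472). This call was lost in 8 of 15 alternatives, with RLE, upper-quartile or total-count scaling, with sex as covariate and without control replicates 1 or 7 or Grhl2_cKO replicates 5 or 10 (adjusted p 0.014 to 0.184 over all alternatives). Lpcat1, which remodels phosphatidylcholine to the surfactant form, stood at 528, 546 and 537 against 475, 428 and 437 CPM, separated and not called (log2 ratio -0.27 ± 0.07, edgeR adjusted p = 0.0644, and 0.00412 to 0.296 over 15 alternatives, 3 of which called it). Agpat3 and Lpin3 had edgeR adjusted p of 0.261 and 0.372.

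Among 19 further SREBP and LXR control genes none was called by edgeR, DESeq2 or limma-voom, and none had an unadjusted p under 0.05 with any of these tools. Abcg1, Mylip and Pparg had adjusted p of 0.521, 0.53 and 0.675 by edgeR. Pparg, the adipogenic nuclear receptor gene, was low at 2.76 to 3.77 CPM in controls and 2.12 to 3.00 CPM in Grhl2_cKO. Of 20 tested genes of fatty acid uptake and oxidation none was called by these 3 tools (1 lower and 1 higher at an unadjusted edgeR p under 0.05). Cd36, a fatty acid carrier, stood at 92.1, 86.8 and 76.3 against 78.8, 64.2 and 65.4 CPM, with overlapping groups (edgeR adjusted p = 0.161), and Slc27a2, Slc27a4 and Ppara followed at 0.313, 0.488 and 0.491.

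Cell type markers were measured beside these genes. Over all tested genes 9.89% were separated lower and 8.17% higher. Calls by edgeR were 2.38% lower and 1.21% higher, and DESeq2 called 4.51% in either direction. Of the 10 epithelial markers 4 (Epcam, Cdh1, Krt8 and Elf3) were separated lower and none higher, and the median log2 ratio was -0.30, beside -0.19 for the lipogenic genes. Krt8 and Elf3 stood at 71.8% and 62.7% of control and were not called (edgeR adjusted p = 0.0843 and 0.0998), while Nkx2-1 and Sftpc stood at 103% and 106%. In the alveolar type 2 list 3 of 16 genes (Sftpd, Il33 and Cebpa) fell and 1 (Hc) rose, and Hc and Il33 kept their calls in all 15 alternatives while Sftpd lost its call in 4 fits without 1 library (highest adjusted p = 0.162). DESeq2 called 6 of these lower and 3 higher, and the alternatives called 2 to 9 in all. The median log2 ratio of the alveolar type 2 list was -0.19, equal to that of the lipogenic genes, with 6 genes separated lower and 3 higher. Cebpa, a transcription factor of that lineage, fell from 110.4, 104 and 114 to 91.3, 72.2 and 77.5 CPM (edgeR adjusted p = 0.019), a call lost without control replicate 7 or Grhl2_cKO replicates 5 or 10 (highest adjusted p = 0.0835). The summed list, mostly Sftpc, overlapped between groups, at 20751 to 22830.1 CPM in controls and 20109 to 24124 CPM in Grhl2_cKO. Of the fat cell and lipofibroblast markers Plin1, Cidec and Lep were at 0 counts in all libraries, which allows up to 0.178 to 0.224 CPM per library, and Adipoq and Fabp4 were under 1 CPM, so defining fat cell markers were at or near 0. Lpl of that list rose to 133% of control (edgeR adjusted p = 0.0219; lost without control replicates 3 or 7 or Grhl2_cKO replicates 5 or 10, 0.0042 to 0.0949). Mesenchymal markers summed to 958 to 1527 CPM in controls and 922 to 1886 CPM in Grhl2_cKO, endothelial to 194 to 267 and 243 to 257 CPM (2 of 10 genes, Cldn5 and Egfl7, separated higher and not called), blood and immune to 18.2 to 31.8 and 17.3 to 32.2 CPM and mesothelial to 336 to 465 and 284 to 347 CPM. Nerve markers summed to 3.29 to 6.79 and 8.11 to 14.7 CPM, with Tubb3 and Elavl3 called higher, and both calls were lost in fits without 1 library, that of Tubb3 also with limma-voom. Of the heart list Myh7 alone was called, from 146, 138 and 139 to 200.5, 191 and 196 CPM (edgeR adjusted p = 0.000848). Myh7 made up most of the heart sum in each library but Grhl2_cKO replicate 1, where the sum was 456 CPM. The part of these differences in the lipid gene results was not tested.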

How the data were processed

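RNA of 6 EpCAM-sorted samples was sequenced from stranded poly(A) libraries. The authors deposited raw counts per Entrez gene with a gene length. The submitters' processing notes name bcl2fastq 2.17.1.14, featureCounts, edgeR 3.16.5, limma 3.30.12 and mm10, with aligner, strand setting and multiple mapping not given in the sources used here. Symbols came from a RefSeq table (25275 identifiers matched, 92.99%; 99.19% of counts), promoters from RefSeq GRCm38.p6 and exon overlaps from GENCODE. Overlap shares are of all GENCODE exon bases of a gene, which can exceed its deposited length.

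Counts were fitted with edgeR 4.0.16 in R 4.3.3 (TMM factors 0.981 to 1.009, filterByExpr with minimum count 10 and minimum total 15, glmQLFit, glmQLFTest, no covariate, threshold 0.05 adjusted over 14842 genes). CPM use TMM-scaled library totals. Standard errors are the estimate divided by the root of its F statistic, and 95% intervals use the t quantile of the test's degrees of freedom. Replicates differed by more than counting noise (chi-square per degree of freedom 7.72 to 12.9). Alternatives were 3 scalings, 2 filters, DESeq2 1.42.0, limma-voom (limma 3.58.1), robust fitting, sex as covariate and leaving out each library. On simulated counts for this comparison (14698 genes) the share of truly changed genes that edgeR called was 56.7% (67 genes) at 1.5-fold, 80.6% (67) at 2-fold and 95.5% (66) at 4-fold, and 8 of 163 calls were false. All 35 genes are described, and of each further pathway list up to 4 genes with the smallest p, of which 2 are not reported here. The 35 genes and the lists were chosen with earlier results of these data known.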

Additional observations from a re-analysis of the deposited data

How the results depend on the processing

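Of 525 refits of single genes (35 genes, 15 alternatives) 520 kept their side of the threshold and no called gene changed sign. The other 5 were the fits of Fasn without 1 library given above. The count of lipid synthesis genes called lower was 2 under each change of scaling, filter, test and covariate and 1 to 2 without 1 library, and the count called higher was 0 throughout. The median log2 fold change was -0.19 to -0.13 for the lipogenic arm and -0.02 to 0.02 for the sterol arm without 1 library. Over all genes, without 1 library, 165 to 336 genes were called lower against 353 and 77 to 221 higher against 180. Calls fell by more than 1.5-fold without control replicate 3 (216 lower, 77 higher), control replicate 7 (89 higher), Grhl2_cKO replicate 5 (165 lower, 84 higher) or Grhl2_cKO replicate 10 (167 lower, 79 higher). The lower share of calls, 66.2%, was 55.9% without control replicate 1 and 73.7% without control replicate 3. The signs of small differences were not fixed: 13 of 15 lipogenic, 9 of 15 sterol and 2 of 5 SREBP control genes had 1 sign in all fits. No paired analysis was possible because the labels do not pair samples across genotypes. Both called differences are smaller than 1.5-fold, the smallest change simulated, of which 56.7% were recovered.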
